A study of Mus musculus with 6 samples.

Results

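The interleukin-1 (IL-1) family genes measured here were the agonist cytokines Il1a, Il1b and Il18, the antagonists Il1rn, Il18bp and Il1r2, and the receptor chains Il1r1, Il1rap and Il18rap. The members were the non-control probes whose gene name in the scanner files is 1 of these 9 symbols, which gave 18 of the 56605 probes on the array. RNA came from bone marrow monocytes of C57BL/6J mice aged 6 to 8 weeks, isolated with a magnetic monocyte kit. The IFN-beta group (3 samples) was cultured for 60 h with 20 ng/mL M-CSF and IFN-beta (100 U), which is a type I interferon. The control group (3 samples) was cultured for 60 h with 20 ng/mL M-CSF alone, the growth factor of the monocyte and macrophage lineage. Each sample was labelled with Cy3 and hybridised to 1 one-colour Agilent array. The labels give no separate mice or cultures for the replicates, so the p-values measure the spread between these 6 samples only, which may be technical.

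IL-1 alpha and IL-1 beta signal by binding the receptor Il1r1, which then recruits the accessory chain Il1rap and the adaptor Myd88. IL-18 does the same through Il18r1 and Il18rap. The system carries several brakes. Il1rn encodes the IL-1 receptor antagonist, which occupies Il1r1 without recruiting Il1rap. Il1r2 is a decoy receptor that binds IL-1 and does not signal, and Il18bp is a secreted protein that captures IL-18. IL-1 beta and IL-18 are made as inactive precursors that caspase-1 cleaves in inflammasomes, and interferons are known to induce Il18bp and Il1rn in myeloid cells.

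Levels are log2 of the processed signal minus the 75th percentile of that array, so a level of 0 is the 75th percentile of all probes. Levels of different probes were not set against each other, since probes differ in brightness. A gene was represented by its brightest tested probe, and testing was limited to probes well above background on all 3 arrays of either group or both. Of the 18 probes, 14 were tested, and they represented 8 of the 9 genes. Il1a was not tested.

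The arrays differed in ways that touch these results. Processed signals had a 75th percentile of 236 to 244 on the IFN-beta arrays, against 549, 528 and 305 on controls 1, 2 and 3. Controls 1 and 2 were nearly alike. Over 286 probes with repeated spots, the median absolute deviation of their log2 differences, scaled to match an SD, was 0.026. The spread between spots alone would give 0.021, and all other pairs of arrays gave at least 0.103. This measure leaves out a constant offset between arrays. Over all genes tested, the median absolute log2 difference was 0.083 between controls 1 and 2, and at least 0.198 for other pairs. Controls 1 and 2 were kept as 2 samples, and the members' results are also given with their mean as 1 sample and against control 3 alone. With control 3 as the single control, the spread in the fit comes from the 3 IFN-beta arrays and control 3 is assumed to vary like them, so those p-values leave out the spread between controls. Of 10 fibroblast markers, 5 or 6 were above background on each IFN-beta array, against all 10 on controls 1 and 2 and 4 on control 3. IFN-beta 1 shared slide 1 with all 3 controls, while IFN-beta 2 and 3 were on slide 2. All 10 monocyte and macrophage markers lay above background on every array, and their median level was 4.61 to 4.73 on the IFN-beta arrays and 4.64 to 4.97 on the control arrays. Single markers did differ at an adjusted p under 0.05, with 1 higher, 3 lower and 6 not past it. Fcgr1 gave 2.20, Cd14 -1.81, Cx3cr1 -1.44 and Itgam -0.72 (limma adjusted p = 0.00173, 0.00267, 0.00667 and 0.0177). The treatment was visible in 2 interferon-induced genes, Isg15, a ubiquitin-like modifier, which rose by 3.79 on the log2 scale, and Ifit1, an RNA-binding antiviral protein, which rose by 4.0 (limma, Benjamini-Hochberg adjusted p = 1.23e-04 and 8.69e-05).

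With IFN-beta, 5 of the 8 tested members rose and 0 fell in limma with Benjamini-Hochberg adjustment over all 19501 genes tested (adjusted p under 0.05). Of all genes tested, 19.8% changed, 11.8% being higher and 8.03% lower. The antagonists accounted for 3 of the 5, with Il18bp up 4.69-fold, Il1r2 up 2.0-fold and Il1rn up 1.81-fold. The receptor chains Il18rap (2.20-fold) and Il1rap (1.82-fold) rose as well. Neither of the 2 tested agonists, Il1b and Il18, passed the threshold, nor did Il1r1. The median log2 fold change was 1.0 over the 3 antagonists, 0.07 over the 2 agonists and 0.87 over the 3 receptor chains. Over all 8 members it was 0.86, against 0.10 over all genes tested. These counts rest on few arrays: with controls 1 and 2 averaged into 1 sample, 1 of the 8 members, Il18bp, kept an adjusted p under 0.05, and against control 3 alone 2 passed, Il18bp and Il1r1. On slide 1 alone, with 1 IFN-beta array against 3 controls, 0 passed (limma, where 369 genes did), although the sign of each of the 5 was the same, with log2 fold changes of 0.81 (Il1rap) to 2.04 (Il18bp). With slide as a block 1 passed, Il1r2, and when the arrays were scaled on spike-in spots 1 passed, Il18bp.

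**Figure D1:**
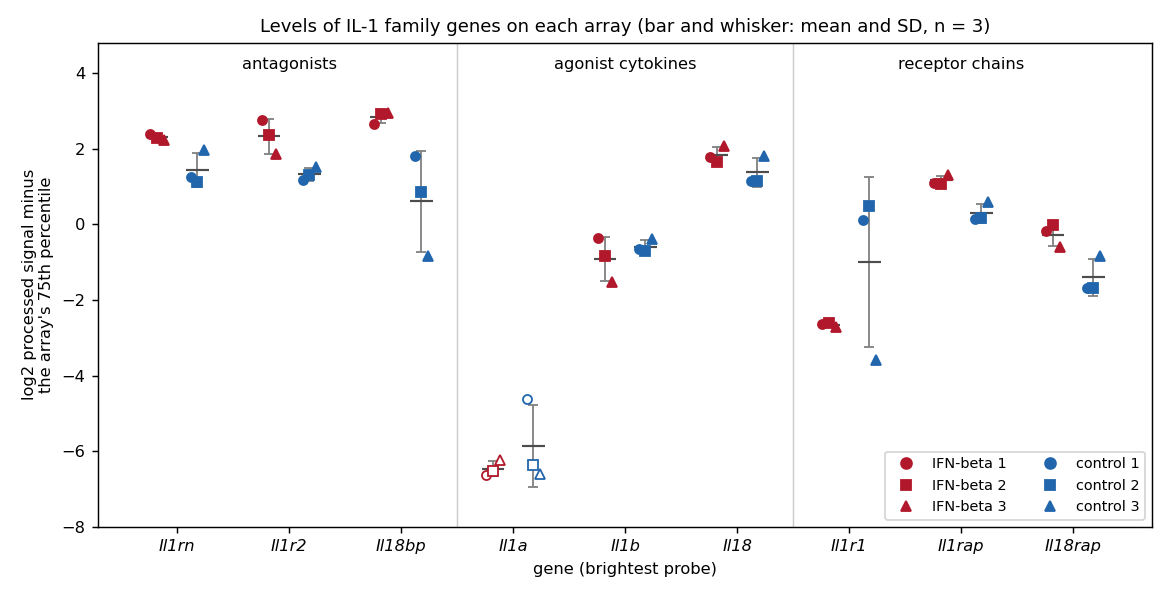
Level of each IL-1 family gene on each of the 6 arrays, as log2 of the processed signal minus the array's 75th percentile (vertical axis), for the brightest probe of each gene, with the IFN-beta arrays to the left of the control arrays and the mean and SD of 3 arrays as bar and whisker. Il1a, drawn with open symbols, was not tested. The groups do not overlap for Il1rn, Il1r2, Il18bp, Il1rap and Il18rap, and control 3 lies apart from controls 1 and 2 for Il18bp and Il1r1. Of all genes tested, 40.2% do not overlap either (23.4% higher with IFN-beta).

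The upstream sequences of the 3 antagonist genes are shown because these genes were all higher with IFN-beta, and because interferon-responsive genes often carry short elements near their start. They are the 250 bases before the annotated start, from RefSeq on GRCm38.p6 and written in the direction of the gene. A match to GAS, the element bound by STAT dimers (TTCNNNGAA), is in capitals where there is one. Il18bp lies on the minus strand at chr7:102018233-102018482, Il1r2 on the plus strand at chr1:40085843-40086092, and the first and second of 3 annotated starts of Il1rn on the plus strand at chr2:24336610-24336859 and chr2:24345041-24345290.
Il18bp: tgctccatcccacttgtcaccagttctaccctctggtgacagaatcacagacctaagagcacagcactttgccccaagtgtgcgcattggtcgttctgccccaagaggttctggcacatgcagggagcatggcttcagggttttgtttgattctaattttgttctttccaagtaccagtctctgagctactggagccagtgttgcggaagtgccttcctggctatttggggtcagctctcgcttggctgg
Il1r2: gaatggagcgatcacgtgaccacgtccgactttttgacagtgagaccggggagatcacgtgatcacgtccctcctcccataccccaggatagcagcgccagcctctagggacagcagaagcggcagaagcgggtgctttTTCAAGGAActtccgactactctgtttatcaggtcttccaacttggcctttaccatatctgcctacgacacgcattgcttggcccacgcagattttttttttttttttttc
Il1rn start 1: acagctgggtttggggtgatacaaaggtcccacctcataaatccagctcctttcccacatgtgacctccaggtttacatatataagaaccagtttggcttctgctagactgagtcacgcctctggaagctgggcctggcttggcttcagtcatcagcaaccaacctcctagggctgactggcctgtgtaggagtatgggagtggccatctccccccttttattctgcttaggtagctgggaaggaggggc
Il1rn start 2: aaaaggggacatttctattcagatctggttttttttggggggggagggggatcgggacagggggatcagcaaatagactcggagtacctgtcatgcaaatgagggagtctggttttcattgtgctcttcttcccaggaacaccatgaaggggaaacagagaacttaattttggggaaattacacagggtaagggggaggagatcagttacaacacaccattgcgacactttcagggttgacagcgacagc

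Both strands of these windows were searched for 3 motifs, and all 9 members had a RefSeq window. Il1r2 held the 1 GAS match found among the members, 102 bases before its start. GAS was present in 7.01% of all 32817 RefSeq windows of this length. None of the members' windows held a core of the interferon-stimulated response element (ISRE: GAAA, any 2 bases and GAAA), which was present in 2.97% of all windows. The second start of Il1r1 held a match to an NF-kB motif 222 bases upstream, a motif present in 7.25% of all windows. The GAS match overlapped no match to another motif. A match is only a string of letters, and the lack of one says only that these letters are not in this window.

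Il18bp, the decoy that binds IL-18, rose by more than the other 4 members that rose when all 6 arrays were weighted equally. Its brighter probe (chr7:109164100-109164159 on mm9, minus strand) had levels of 2.65, 2.91 and 2.95 on IFN-beta arrays 1, 2 and 3, against 1.79, 0.86 and -0.84 on controls 1, 2 and 3. The IFN-beta arrays lay close together and above all controls, while the controls were spread over more than 2 log2 units. The mean was 2.84 ± 0.17 with IFN-beta and 0.61 ± 1.33 in controls (SD, n = 3 each). The log2 fold change was 2.23 (standard error 0.58, 95% interval 0.88 to 3.58, limma adjusted p = 0.0340). Before scaling the groups overlapped. Processed signals of this probe were 1530, 1778 and 1872 with IFN-beta, against 1901, 959.6 and 171.1 on controls 1, 2 and 3. The second probe, in the same transcript (chr7:109164573-109164632), gave a log2 fold change of 2.25 with an adjusted p of 0.0509 in limma over all 29795 probes tested. Its levels were 1.47, 1.89 and 2.08 with IFN-beta, against 0.94, -0.09 and -2.17 in controls.

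The size of the Il18bp difference depended on which control was used. Against control 3 alone it was 3.67 (limma adjusted p = 0.0010), and with control 3 left out 1.51 (adjusted p = 0.00795). With controls 1 and 2 averaged it was 2.59 (adjusted p = 0.0218). The call was lost without IFN-beta 1, 2 or 3 or control 2 (adjusted p = 0.0763, 0.102, 0.104 and 0.0574). Controls 1 and 2, which were otherwise nearly alike, differed by 0.93 for Il18bp. Of 17522 genes above background on all arrays, 58 differed between these 2 controls by as much (0.331%), and the median difference was 0.08. The log2 of the summed fibroblast markers was 8.55, 8.78 and -0.19 on controls 1, 2 and 3. On the IFN-beta arrays, where Il18bp was highest, it was 0.93 to 1.21. The part of these markers in the Il18bp level was not tested.

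Il1r2, the decoy receptor for IL-1, rose on both of its probes. The brighter probe (chr1:40182006-40182066 on mm9, plus strand) had levels of 2.76, 2.35 and 1.85 on the IFN-beta arrays, against 1.17, 1.29 and 1.5 on the controls. Every IFN-beta array lay above every control, as for 23.4% of all genes tested. Before scaling the groups overlapped. Processed signals of this probe were 1658, 1202 and 871.6 with IFN-beta, against 1236, 1294 and 865.9 on the controls. On this probe the difference was 1.0 (standard error 0.25, 95% interval 0.42 to 1.58, limma adjusted p = 0.0299). The dimmer probe, whose coordinates bridge an intron (chr1:40168971-40171918), had levels of 0.37, 0.71 and 0.11 with IFN-beta, against -1.35, -1.38 and -0.65 in controls. Its processed signals did not overlap before scaling, at 315.8, 387.8 and 260.6 against 215.2, 203.5 and 194.6. It gave the larger difference, 1.52 (standard error 0.26, 95% interval 0.93 to 2.12, limma adjusted p = 0.00627 over all probes tested, 21.5% of which changed). This probe kept an adjusted p under 0.05 without each of the 6 arrays in turn (highest 0.0297) and with controls 1 and 2 averaged (1.40, adjusted p = 0.0217). It lost the call with slide as a block (1.5, adjusted p = 0.0858) and on slide 1 alone (adjusted p = 0.143). The brighter probe lost the call without IFN-beta 1 or 2 or control 1 or 2 (adjusted p = 0.0712, 0.0982, 0.108 and 0.0851) and with controls 1 and 2 averaged (0.95, adjusted p = 0.0932). Against control 3 alone the 2 probes gave 0.82 and 1.05 (adjusted p = 0.233 and 0.0836).

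Il1r2 is also a known product of neutrophils, and many markers of neutrophils and all those of basophils and mast cells also rose: 8 of 12 and 8 of 8 passed as higher and 0 as lower. Of the neutrophil markers, S100a8, S100a9 and Retnlg gave 0.40, 0.41 and 0.68 and Mmp8 -0.29, and these 4 did not pass (limma adjusted p = 0.154, 0.129, 0.131 and 0.462). All 12 neutrophil markers and all 8 basophil and mast cell markers lay above background on every array, so none was at 0. The log2 of the summed neutrophil markers was 9.74 to 10.04 with IFN-beta and 8.94 to 9.37 in controls. That of the basophil and mast cell markers was 6.11 to 6.67 with IFN-beta and 2.94 to 3.68 in controls. Their part in the levels of Il1r2 and of the receptor chains was not tested. In bulk RNA of this kind, more cells of a type and more RNA per cell cannot be told apart.

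Il1rn, the IL-1 receptor antagonist, had levels of 2.38, 2.29 and 2.23 on the IFN-beta arrays, against 1.25, 1.13 and 1.96 on controls 1, 2 and 3, by its brighter probe (chr2:24206125-24206184 on mm9, plus strand). The IFN-beta arrays were tightly grouped, and control 3 lay nearer to them than to the other controls. Il1rn thus differed by 0.85 on the log2 scale (standard error 0.24, 95% interval 0.30 to 1.41, limma adjusted p = 0.0434). Before scaling the groups overlapped: its processed signal was 1269, 1156 and 1134 with IFN-beta, against 1303, 1154 and 1188 on controls 1, 2 and 3. Scaled on spike-in spots, the difference was 0.56 (limma adjusted p = 0.230). The second probe (chr2:24205094-24205153) gave 0.45 and did not pass (limma adjusted p = 0.174 over all probes), and its groups overlapped. The Il1rn call was lost without any 1 of IFN-beta 1, 2 or 3 or controls 1 or 2 (adjusted p 0.109 to 0.156), while without control 3 the difference was 1.11 (adjusted p = 9.5e-04). Against control 3 alone it was 0.34 (adjusted p = 0.356), and with controls 1 and 2 averaged 0.73 (adjusted p = 0.150).

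The agonist cytokines did not show a difference past the threshold. Il1b, the inflammasome-processed IL-1, had levels of -0.37, -0.85 and -1.53 on IFN-beta arrays 1, 2 and 3, against -0.67, -0.72 and -0.40 on controls 1, 2 and 3 (chr2:129190347-129190406 on mm9, minus strand). The IFN-beta arrays fell on both sides of the controls. The log2 fold change was -0.32 (standard error 0.29, 95% interval -1.0 to 0.36, limma adjusted p = 0.462). On slide 1 alone, with IFN-beta 1 as the only IFN-beta array, it was 0.22 (limma adjusted p = 0.715). Against control 3 alone it was -0.52 (adjusted p = 0.512), and with controls 1 and 2 averaged -0.37 (adjusted p = 0.552). A second Il1b probe (chr2:129190880-129190939) gave -0.09 (limma adjusted p = 0.802). Another probe, designed to a different transcript (chr2:129195465-129195524), was above background on 2 of 3 arrays of each group and was not tested.

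Il18, the other cytokine that caspase-1 matures, had levels of 1.77, 1.64 and 2.06 with IFN-beta, against 1.14, 1.15 and 1.81 on controls 1, 2 and 3 (chr9:50389886-50389942 on mm9, plus strand). Control 3 lay among the IFN-beta arrays. Il18 differed by 0.45 on the log2 scale (standard error 0.23, 95% interval -0.09 to 1.0, limma adjusted p = 0.202). Without control 3 it was 0.67 (adjusted p = 0.0151), against control 3 alone 0.01 (adjusted p = 0.979), and with controls 1 and 2 averaged 0.34 (adjusted p = 0.486). Il1a, the IL-1 that is active without cleavage, was measured by 1 probe (chr2:129125994-129126053, minus strand), which was above background on 0 of 3 IFN-beta arrays and 1 of 3 controls. Its processed signal was 2.49 to 3.18 with IFN-beta, against 22.2, 6.40 and 3.14 on controls 1, 2 and 3, and no fold is given.

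**Figure D2:**
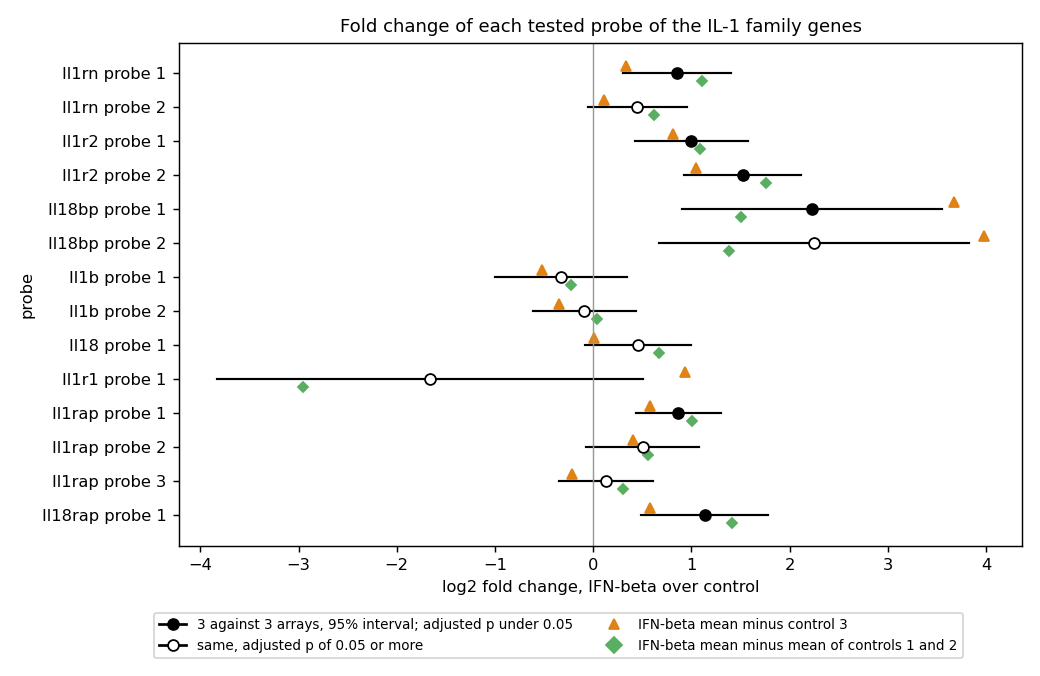
Log2 fold change of each of the 14 tested probes, IFN-beta over control (horizontal axis), with 95% intervals for 3 against 3 arrays (filled circles, adjusted p under 0.05 over all probes). Triangles give the IFN-beta mean minus control 3 and diamonds the IFN-beta mean minus the mean of controls 1 and 2. Il1r1 lies on opposite sides of 0 by these 2 measures, at 0.93 and -2.95.

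Among the receptor chains, Il1r1, the signalling receptor for IL-1, could not be given a direction. Its 1 probe (chr1:40372667-40372726 on mm9, plus strand) had levels of -2.64, -2.62 and -2.71 with IFN-beta, against 0.11, 0.48 and -3.59 on controls 1, 2 and 3. Controls 1 and 2 were far above the IFN-beta arrays and control 3 was below them. The log2 fold change was -1.66 (standard error 0.95, 95% interval -3.87 to 0.56, limma adjusted p = 0.247). Without control 3 it was -2.95 (adjusted p = 7.0e-05), and with controls 1 and 2 averaged -1.01 (adjusted p = 0.539). The sign was the opposite against control 3 alone, at 0.93 (adjusted p = 0.0396, a fit that leaves out the control SD of 2.25). The fibroblast markers were bright on the same 2 controls. The log2 of their summed signal was 0.93 to 1.21 on the IFN-beta arrays, against 8.55, 8.78 and -0.19 on controls 1, 2 and 3. All 5 endothelial markers were also above background on controls 1 and 2, against 3 on control 3 and 2 or 3 on each IFN-beta array. Their median level was -3.93 to -3.72 with IFN-beta, against 0.43, -0.12 and -3.56 on controls 1, 2 and 3. Kdr, 1 of them, was higher with IFN-beta (1.94). The part of either set of markers in the Il1r1 level was not tested.

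Il1rap, the accessory chain that IL-1 receptors share, had levels of 1.10, 1.07 and 1.30 with IFN-beta, against 0.14, 0.15 and 0.58 in controls, by its brightest probe (chr16:26717577-26717636 on mm9, plus strand). The groups did not overlap, and the log2 fold change was 0.87 (standard error 0.19, 95% interval 0.43 to 1.30, limma adjusted p = 0.0177). Before scaling they did overlap. Processed signals were 523.2, 496.6 and 596.9 with IFN-beta, against 605.1, 587.1 and 457.1 on controls 1, 2 and 3. The other probes of Il1rap follow different transcript models and did not pass: probe 2 (chr16:26701498-26701557) gave 0.51 and probe 3 (chr16:26725291-26725350) gave 0.13 (limma adjusted p = 0.177 and 0.682). Probe 3 turned to -0.22 against control 3 alone and to -0.16 with scaling on spike-in spots. Probe 4 (chr16:26724859-26724918) was above background on no array. The call of the brightest probe was lost without IFN-beta 2 or 3 or control 1 or 2 (adjusted p = 0.0589, 0.0734, 0.0864 and 0.0752) and with controls 1 and 2 averaged (0.79, adjusted p = 0.0798). Against control 3 alone it gave 0.58 (adjusted p = 0.164).

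Il18rap, the accessory chain of the IL-18 receptor, had levels of -0.18, -0.02 and -0.61 with IFN-beta, against -1.68, -1.70 and -0.85 on controls 1, 2 and 3 (chr1:40608001-40608060 on mm9, plus strand). All IFN-beta arrays were above all controls, of which control 3 lay nearest. Before scaling the groups overlapped. Processed signals were 215.4, 233.3 and 157.8 with IFN-beta, against 171.2, 163 and 169.9 on controls 1, 2 and 3. Il18rap differed by 1.14 on the log2 scale (standard error 0.28, 95% interval 0.48 to 1.79, limma adjusted p = 0.0287). It was 0.57 against control 3 alone (adjusted p = 0.275) and 1.0 with controls 1 and 2 averaged (adjusted p = 0.0946). The call was lost without IFN-beta 1 or 2 or control 1 or 2 (adjusted p = 0.0806, 0.105, 0.102 and 0.0928). A second Il18rap probe (chr1:40582730-40582789) was above background on 0 of 3 IFN-beta arrays and 1 of 3 controls and was not tested.

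The balance between antagonist and agonist was followed as the difference of their log2 levels within each array, for 3 pairs. Such a difference has no meaning of its own, because the probes differ in brightness, and only its change between groups was compared. Il1rn minus Il1b was 2.75, 3.14 and 3.77 with IFN-beta, against 1.91, 1.85 and 2.36 in controls. The groups did not overlap and the means differed by 1.18, by 1.10 with controls 1 and 2 averaged and by 0.86 against control 3 alone. On the second brightest probes the difference was 0.54, and on slide 1 alone 0.71. Il18bp minus Il18 was 0.87, 1.27 and 0.90 with IFN-beta, against 0.65, -0.29 and -2.65 on controls 1, 2 and 3. Here the means differed by 1.78 without overlap, control 1 lay just below the IFN-beta arrays, and the difference was 3.66 against control 3 alone, 2.25 with controls 1 and 2 averaged and 0.84 without control 3.

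Il1r2 minus Il1r1, the decoy against the signalling receptor, was 5.40, 4.97 and 4.56 with IFN-beta, against 1.06, 0.81 and 5.09 on controls 1, 2 and 3. The means differed by 2.66, but control 3 lay among the IFN-beta arrays. Against it alone the difference was -0.11, without it 4.04, and with controls 1 and 2 averaged 1.96. In the 2-sided exact permutation test over the 20 splits of the arrays, p was 0.1 for the first and second pair and 0.3 for the decoy pair, or 0.15, 0.15 and 0.3 after Benjamini-Hochberg adjustment over the 3 pairs. The smallest p this design allows is 0.1, so none could reach 0.05. For scaled levels of single genes, groups that do not overlap were found for 40.2% of all genes tested (23.4% higher with IFN-beta). The share over differences between 2 genes was not computed.

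**Figure D3:**
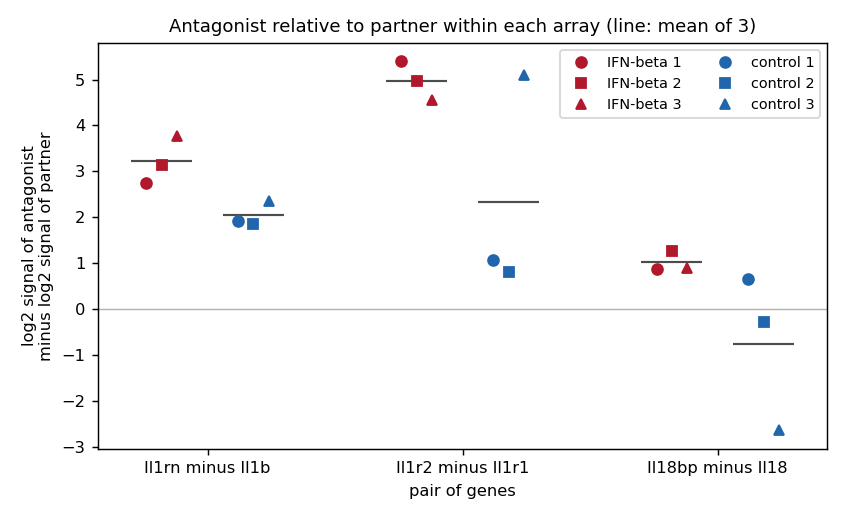
Log2 signal of the antagonist minus that of its partner on each array (vertical axis) for 3 pairs of genes, IFN-beta left of control, with the mean of 3 arrays as a line. For the pairs with Il1b and Il18 all IFN-beta arrays lie above all controls, and for Il1r2 minus Il1r1 control 3, at 5.09, lies within the IFN-beta range of 4.56 to 5.40.

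All 4 other receptors of the family that were tested rose, with a median log2 fold change of 1.54 (1.37 against control 3 alone): Il1rl1 (ST2, the IL-33 receptor), Il1rl2 (the IL-36 receptor), Il18r1 (the ligand-binding IL-18 receptor) and Sigirr (a single-domain inhibitory receptor). Il1rl1 had levels of 2.77, 2.37 and 2.05 with IFN-beta, against -0.43, -0.35 and 0.41 in controls, a log2 fold change of 2.52 (standard error 0.28, limma adjusted p = 0.00111). It passed under each of the 24 other settings tried, with values of 1.99 to 2.89. Il1rl2 had levels of 1.99, 1.67 and 2.19 with IFN-beta, against -0.18, -0.23 and 0.51 in controls, and rose by 1.92 (limma adjusted p = 0.00215). Il18r1 rose by 1.15 and Sigirr by 0.67 (limma adjusted p = 0.0140 and 0.0257). Against control 3 alone the differences were 1.99 for Il1rl1, 1.45 for Il1rl2, 1.30 for Il18r1 and 0.48 for Sigirr. With controls 1 and 2 averaged 3 of the 4 passed, and Sigirr gave 0.63 (adjusted p = 0.124). Il18r1 lost its call without IFN-beta 2 or control 1 (adjusted p = 0.0621 and 0.0509), and Sigirr without each array except control 3 (0.0646 to 0.131). Il1rl1 is a known basophil and mast cell gene, and the summed markers of those cells, given above, rose with it. Their part was not tested. Il1rapl1 and Il1rapl2 were not tested.

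Of 6 further ligands of the family, 1 was tested. Il1f9, an IL-36 cytokine, had levels of -0.67, -0.75 and -1.36 with IFN-beta, against -1.93, -2.15 and -1.32 in controls (log2 fold change 0.87, limma adjusted p = 0.0651). Il1f5, Il1f6, Il1f8, Il1f10 and Il33 were not tested.

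Of 15 tested genes that carry the signal from the receptor, 1 rose (6.67%, against 11.8% of all genes) and 1 fell (6.67%, against 8.03%), with a median log2 fold change of 0.40 (-0.0048 against control 3 alone). The count of changed genes was 2 with all arrays and without each array except control 3, and 11 without control 3. Ikbkg, the regulatory subunit of the IkB kinase complex, rose by 1.2 (limma adjusted p = 0.00507), but this was its brightest probe alone. The mean of its 3 probes gave 0.27 and the second brightest 0.20 (limma adjusted p = 0.222 and 0.593), and another probe had the opposite sign. Peli2, a ubiquitin ligase that acts on IRAK proteins, fell by 1.12 (limma adjusted p = 0.00600). Myd88, the shared adaptor, gave 0.78 and did not pass (limma adjusted p = 0.0575). Peli3 was not tested.

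Of 16 genes of inflammasome assembly, cytokine maturation and release, 5 rose (31.2%, against 11.8% of all genes) and 1 fell (6.25%, against 8.03%), with a median of 0.62 (0.20 against control 3 alone). These 6 became 14 when control 3 was left out, and they were fewest, at 3, when the array left out was IFN-beta 2 or 3 or control 1 or 2. Nlrp1a, an inflammasome sensor, had levels of 5.75, 5.82 and 5.66 with IFN-beta, against 3.53, 3.39 and 3.61 in controls, and rose by 2.23 (limma adjusted p = 1.47e-04) on its brighter probe. Its second probe gave 0.54 and did not pass (limma adjusted p = 0.121). Serpinb1a, an inhibitor of neutrophil proteases and inflammatory caspases, rose by 1.99 (limma adjusted p = 6.53e-04). Casp4, the sensor of cytosolic lipopolysaccharide, rose by 1.28, and Mefv, which encodes pyrin, by 0.92 (limma adjusted p = 0.00292 and 0.0170). Casp1, which cleaves the precursors of IL-1 beta and IL-18, rose by 0.85 (limma adjusted p = 0.0398). Txnip, a thioredoxin-binding protein that can engage Nlrp3, fell by 0.69 (limma adjusted p = 0.0223), and its second probe gave -0.35 (limma adjusted p = 0.156). Nlrp3 itself gave 0.49 and Gsdmd, the pore-forming gasdermin, 0.63, and neither passed (limma adjusted p = 0.18 and 0.0852). Casp1, Mefv and Txnip lost their calls when single arrays were left out: Casp1 and Txnip without each array except control 3 (adjusted p up to 0.148 and 0.0876), and Mefv without IFN-beta 2 or 3 or control 1 or 2 (up to 0.0788). With controls 1 and 2 averaged, Casp1, Mefv and Txnip did not pass (0.74, 0.83 and -0.72, adjusted p = 0.141, 0.0740 and 0.0822). Casp1 gave 0.40 against control 3 alone.

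Of 11 genes known to be induced through IL-1 receptors or NF-kB, 2 rose (18.2%, against 11.8% of all genes) and 1 fell (9.09%, against 8.03%), with a median of 0.19 (0.08 against control 3 alone). These 3 became 8 when control 3 was left out, and 1 when the array left out was IFN-beta 2 or 3. Il6, an acute-phase cytokine, had levels of 1.16, 0.84 and 0.70 with IFN-beta, against -1.37, -1.26 and -4.08 on controls 1, 2 and 3, and rose by 3.14 (limma adjusted p = 0.0191). Its call was lost without IFN-beta 1, 2 or 3 (adjusted p = 0.0624, 0.0626 and 0.0567). The difference was 4.98 against control 3 alone and 2.21 without control 3. Il6 was higher on controls 1 and 2, where the fibroblast markers were bright, than on control 3. It was higher still on the IFN-beta arrays, where these markers were dim. Their part in the Il6 level was not tested. Lcn2, an iron-siderophore-binding protein of neutrophils and macrophages, rose by 1.40 (limma adjusted p = 0.00420). The neutrophil granule genes Ltf, Camp and Ngp rose alongside, by 1.53, 1.37 and 1.85 (limma adjusted p = 0.00689, 0.00426 and 0.00166), and the part of neutrophil RNA in the Lcn2 level was not tested. Cxcl1, a neutrophil-attracting chemokine, was not well above background on any IFN-beta array. It was at least 19.5-fold lower with IFN-beta than in the mean of the controls (limma adjusted p = 0.0146), but the controls were at 1.28, 2.08 and -3.0, and against control 3 alone it was at least 2.24-fold lower. Its call was lost without IFN-beta 2 or 3 (adjusted p = 0.0581 and 0.0538). The fibroblast markers were bright on the same 2 controls, where all 5 endothelial markers were also above background. The part of either set in the Cxcl1 level was not tested. Over all 5 lists, 12 of 47 tested genes rose (25.5%, against 11.8% of all genes tested) and 3 fell (6.38%, against 8.03%), with a median log2 fold change of 0.43, or 0.10 against control 3 alone. On slide 1 alone 2 of them passed, Il1rl1 (2.89) and Nlrp1a (2.24), and 5 with slide as a block. Casp1, Myd88, Nlrp3, Gsdmd and Il1f9 were chosen for naming after their values were seen.

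**Figure D4:**
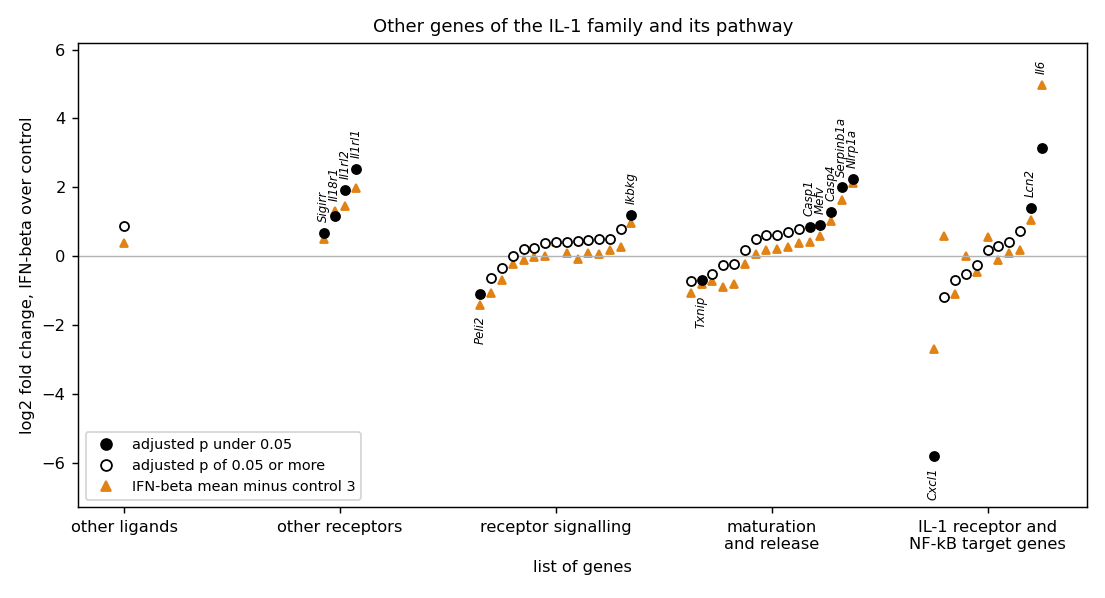
Log2 fold change, IFN-beta over control (vertical axis), of the 47 tested genes in 5 lists of other IL-1 family and pathway genes, each gene a circle (filled where the adjusted p is under 0.05) with the IFN-beta mean minus control 3 as a triangle. All 4 tested receptors are above 0 by both measures. Cxcl1 is drawn at its fitted value, but only a bound can be given for it, at least 19.5-fold lower against the 3 controls and at least 2.24-fold lower against control 3 alone.

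Over the 6 arrays, the genes whose levels followed those of Il1b and Il1rn most closely were found among 13334 genes, by the root mean square difference of their log2 levels after each was centred on its mean. For Il1b these were Odf2, Cnpy2 and Wdcp (0.08, 0.09 and 0.09). For Il1rn they were Pfas, I830077J02Rik and Cd24a (0.04, 0.05 and 0.05). With 6 arrays and this many genes such likeness is a description only.

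**Figure D5:**
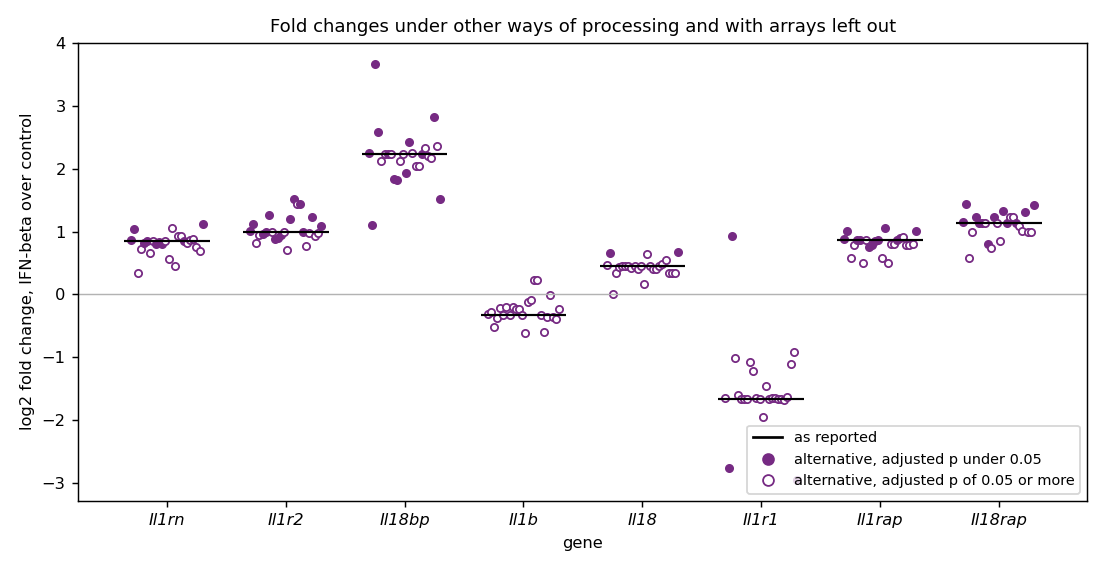
Log2 fold change, IFN-beta over control (vertical axis), of the 8 tested members as reported (line) and under 24 other settings (circles, filled where the adjusted p is under 0.05). Il1rn, Il1r2, Il18bp, Il1rap, Il18rap and Il18 are above 0 under every setting shown, and Il1b and Il1r1 lie on both sides of 0.

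Across the 24 other settings, which included other normalizations, other probes and arrays left out, the 5 members that rose kept their sign in each. Not every setting could change a sign. The filters, the replicate block and eBayes with trend and robust left these fold changes as they were. Il18rap had 1 tested probe, so the choice of probe could not alter it. Il1r2 passed in 14 of them (values 0.70 to 1.52). Il18bp passed in 12 (1.10 to 3.67), as did Il1rap (0.50 to 1.06) and Il18rap (0.57 to 1.44), and Il1rn passed in 9 (0.34 to 1.11). Il1b passed in 0 of the 24, with values of -0.62 to 0.22.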

How the data were processed

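Expression was measured on 6 one-colour arrays. Per the file headers, the authors extracted the scans with Agilent Feature Extraction 12.0.3.1, and the deposited files hold an intensity per spot (processed signal, already background-corrected by the software), not normalized between arrays. The authors' deposited log2 values, whose normalization is not given in the sources used here (limma is named in the submitters' processing notes, column medians 4.81 to 4.83), served as an alternative.

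Outlier spots (135 to 174 per array) were left out, spots of a probe averaged, and log2 signals scaled on each array's 75th percentile over probes. No spot was saturated. Of 56605 probes, 29795 (19501 genes) were tested with limma 3.58.1 in R 4.3.3 by lmFit and eBayes, without covariates, with 4 residual degrees of freedom. The number of arrays limits the precision. A bound was formed from the lowest signal well above background. Probe positions are those of the files (mm9).

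The members and lists were chosen with earlier results of these data known. The rule for names was every member and probe, the 4 genes of lowest p per list and direction among changed genes, untested listed genes by name only, Isg15 and Ifit1, and for Il1b and Il1rn the 3 most alike genes. The alternatives were other normalizations, filters, probe choices, blocks and arrays left out, of which the 75th percentile over spots was added after seeing the data.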

Additional observations from a re-analysis of the deposited data

How the results depend on the processing

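The numbers of changed genes and probes, 3866 and 6399, depended strongly on the control arrays. Leaving out 1 array at a time gave 1828 to 9387 genes, 2854 to 14028 probes, 0 to 7 members and 8 to 38 of the listed pathway genes, with 7 members and 9387 genes without control 3. Control 3 alone gave 1858 genes, 2444 probes and 2 members. Controls 1 and 2 averaged gave 1992 genes, 3037 probes and 1 member. Slide as a block gave 1040 genes, 1620 probes, 1 member and 5 listed genes, and slide 1 only gave 369, 601, 0 and 2. Array weights gave 12735 genes, 19609 probes and 41 listed genes. No filter on dim probes gave 1697 genes, 2503 probes, 0 members and 9 listed genes. Normexp with the 75th percentile gave 10040 probes and 23 listed genes, and normexp with quantile normalization 26 listed genes. Averaging the probes of each gene gave 3 members, the second brightest probe 2 and scaling on spike-in spots 1.

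Scaling moved the median of all genes, from 0.10 as reported to 0.30 on the array median and -0.19 on spike-in spots, and the share of changed genes that were higher was 27.7% with spike-in spots and 69.9% with normexp and the 75th percentile, against 59.5% as reported. Signs turned for Il1r1 (0.93, control 3 alone), for Il1r2 minus Il1r1 (-0.11, control 3 alone), for Il1b with slide as a block and on slide 1 (0.22 in both), and for Il1rap probe 3 (-0.22 with control 3 alone, -0.16 with spike-in spots and -0.0079 without control 2). Il1b probe 2, at -0.09, was 0.11 with array weights, 0.10 in the deposited table, 0.35 with normexp and the 75th percentile, 0.036 with normexp and quantiles, 0.11 with quantiles, 0.11 on the array median, 0.10 without IFN-beta 3 and 0.04 without control 3 (-0.24 to 0.10 over the arrays left out). The cause was not tested. The pair differences with arrays left out ranged over 0.904 to 1.41, 1.90 to 4.04 and 0.835 to 2.48 for Il1rn minus Il1b, Il1r2 minus Il1r1 and Il18bp minus Il18.

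The labels do not say whether the replicate numbers pair the samples. Same-numbered arrays deviated from their group means together with correlations of 0.07, 0.02 and 0.07. With the replicate number as a block, 3268 genes and 1 member (Il1rap) changed. That 6 of 6 arrays correlated best with their own number is at most a weak hint from the data, not the design. Deviations from a group mean cancel within the group, so the 6 matches are not independent.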
